A study of Mus musculus with 11 samples.

Results

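The cells described here are mouse embryonic stem cells in 2i/LIF that carried many messages of mitotic genes. They were chosen in the single-cell library of wild-type E14 cells grown in 2i/LIF on tissue-culture plastic, and were selected on the summed UMIs of 8 panel genes (Mki67, Top2a, Ccnb1, Ccna2, Cdk1, Plk1, Aurka and Bub1). Barcodes with at least 1000 unique molecular identifiers (UMIs, each counting 1 captured transcript) and at most 0.9 genes per UMI were kept as cells, each cell was thinned at random to 1000 UMIs, and a cell with 4 or more panel UMIs among these was called rich. This gave 239 rich cells of 2889 in the library, a share of 8.27% (exact Clopper-Pearson 95% interval 7.29 to 9.34, counting error only), out of 7079 single cells in the series. The comparison class is the 865 cells of the library with 0 panel UMIs, and the other 1785 cells had 1 to 3.

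The series holds 11 samples, of which 5 are single-cell libraries made with inDrop, a droplet method that gives each cell a barcode. Beside the 2i/LIF library there were E14 cells in serum/LIF on plastic, E14 cells in serum/LIF in agarose microgels, and lines labelled PGHIGH and PGLOW in serum/LIF on plastic, which carry plakoglobin (Jup) under a constitutive CAG promoter and are called JupHigh and JupLow here. The parent line of these last lines and the number of clones behind them are not given in the labels, and all 5 libraries share LIF, the cytokine that sustains self-renewal, while 2i adds a pair of kinase inhibitors. The 6 bulk samples, made from Rex1GFPd2 cells, were not used.

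A cell that has copied its DNA builds up messages for the machinery of division through G2 and destroys or stops making most of them as it leaves mitosis, so the sum of such messages follows the position in the cycle. Many of these genes share promoter elements: the cell cycle homology region (CHR, TTTGAA), bound by the DREAM and B-MYB-MuvB complexes, and CCAAT boxes bound by NF-Y. Mouse embryonic stem cells cycle fast, with a short G1, and a large share of a culture is in S phase at any time.

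Promoter sequence was read from RefSeq windows on GRCm38.p6, from 250 bases before to 50 bases after each start, for 7 of the 8 panel genes. Shown are the 3 panel genes found in most rich cells (Top2a, Cdk1, Ccnb1) and the one found in fewest (Bub1), each as up to 130 bases upstream of the start that lie outside annotated exons, 5′ to 3′ along the gene. All 4 genes are on the minus strand, at chr11:99024190-99024319 for Top2a, chr10:69352939-69353068 for Cdk1, chr13:100786571-100786700 for Ccnb1 and chr2:127831866-127831995 for Bub1. Capitals mark the CHR letters (TTTGAA, or TTCAAA on the other strand) and the CCAAT letters (or ATTGG on the other strand).
Top2a: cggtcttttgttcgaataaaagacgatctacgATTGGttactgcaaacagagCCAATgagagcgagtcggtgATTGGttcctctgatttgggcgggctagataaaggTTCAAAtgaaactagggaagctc
Cdk1: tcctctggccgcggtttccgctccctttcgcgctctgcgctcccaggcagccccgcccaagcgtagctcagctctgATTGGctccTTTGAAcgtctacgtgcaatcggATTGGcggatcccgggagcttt
Ccnb1: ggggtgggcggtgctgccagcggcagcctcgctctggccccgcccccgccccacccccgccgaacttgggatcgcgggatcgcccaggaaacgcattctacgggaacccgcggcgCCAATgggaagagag
Bub1: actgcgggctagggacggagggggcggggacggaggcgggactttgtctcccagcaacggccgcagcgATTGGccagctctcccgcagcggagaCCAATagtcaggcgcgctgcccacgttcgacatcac

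With the motifs CHR (TTTGAA), NF-Y (CCAAT) and E2F (TTTCCCGC or TTTGGCGC), the CHR letters stood in 5 of the 7 panel windows (71.4%), on either strand, and CCAAT in 7 of 7. In Top2a they lay at -179 and -23 from the start and in Cdk1 at -71 and -15, whereas the windows of Ccnb1 and Bub1 held CCAAT without TTTGAA. The wider lists of genes used in G2 and M (92 genes, 90 of them with enough UMIs to compare in 2i/LIF) had windows for 77, of which 44 (57.1%) held the CHR letters, 50 (64.9%) CCAAT and 35 (45.5%) both. Over all 27025 genes with a window the shares were 20.2%, 41.1% and 7.97%, and over the 6298 of them that entered the 2i/LIF comparison 14.6%, 44.3% and 6.3%. DNA replication genes had CHR letters in 4 of 29 windows (13.8%) and an E2F motif in 10 (34.5%), against 6 of 77 (7.79%) for E2F in the G2/M lists, 1.8% over all genes and 4.18% over those that entered the comparison. Among the G2/M genes higher in the rich cells by the fold used below, 17 of 25 windows (68%) held the CHR letters. In windows of 100 bases the CHR share was 23.4% in the G2/M lists and 6.76% over all genes. A match is a description of the window, not a binding site.

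Before the results, the makeup of the classes must be given, because it touches every ratio. Rich cells had a median of 2945 UMIs (quartiles 1739 to 4406) and panel-zero cells 2248 (1248 to 3863). Among 1000 thinned UMIs the rich cells held a median of 733 genes and panel-zero cells 662. Only 5 rich cells (2.09%) had under 600 genes, against 260 panel-zero cells (30.1%). The median share of mitochondrial UMIs was similar, 10.3% and 10.9%, but the 95th percentile was 17.9% in rich and 70.2% in panel-zero cells. This share also counts nuclear gene models that repeat mitochondrial sequence, which the later sums of mitochondrial genes leave out. The panel-zero class thus held many cells with few genes and much mitochondrial RNA. Most summed list ratios below are therefore also given for cells with 600 or more genes among 1000 UMIs (234 rich, 605 panel-zero), a set added after the data were seen, and a gene named as past the fold in 2i/LIF was past it in that set too unless stated otherwise. Of the cells over 3 times the median depth, which can be pairs of cells, 3 were rich and 10 panel-zero, and no doublets were removed.

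**Figure D1:**
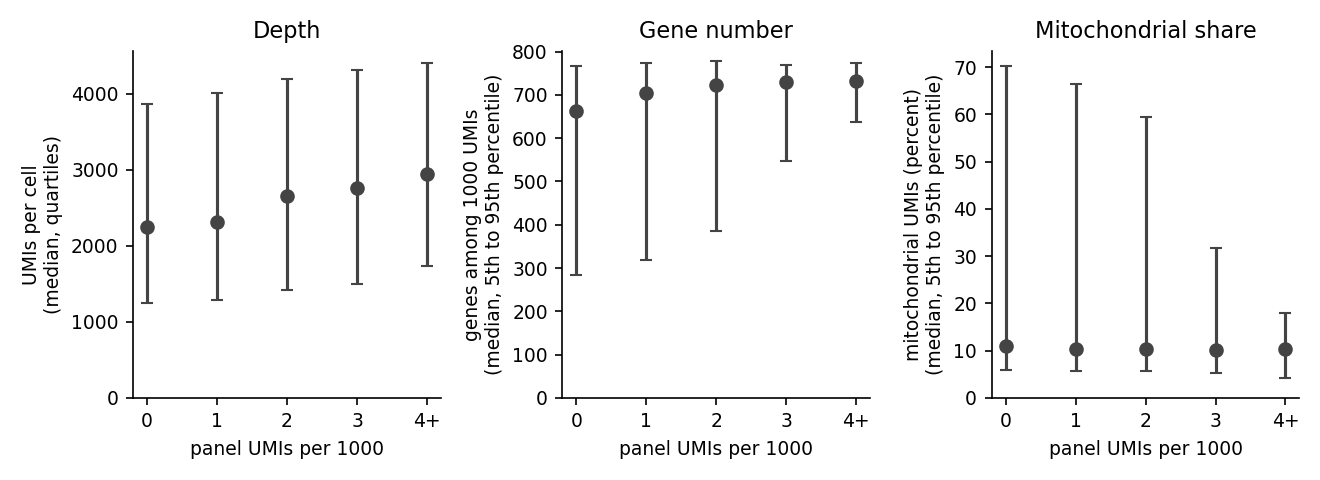
UMIs per cell (points medians, bars quartiles), genes among 1000 UMIs and percent of mitochondrial UMIs (points medians, bars 5th to 95th percentiles) for 2i/LIF cells by panel UMIs among 1000. The mitochondrial share also counts nuclear gene models that repeat mitochondrial sequence, and its bars reach 70.2% in cells with 0 panel UMIs and 17.9% in rich cells (4 or more).

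The label was checked against other cell types over the whole library. Embryonic stem cell genes were high, with 585 CPM (counts per 1000000 UMIs) of Pou5f1, 539 of Nanog, 475 of Zfp42 and 245 of Sox2. Of 8284254 UMIs, Gata4 (endoderm) had 17, Sox17 and Sox7 1 each, Col1a2 (fibroblasts) 11, Thy1 3 and Zscan4f (2-cell-like cells) 2. The fibroblast list had 0 held-out UMIs in rich cells and 6 in panel-zero cells. No barcode was shared between libraries. Barcodes of under 500 UMIs were taken as a view of free RNA, though nothing here tells them from shallow cells. They numbered 2 in 2i/LIF and held 0 panel UMIs of 333, too few to set a background. In JupHigh such barcodes held 2028 panel CPM (1914 to 2147), against 1666 over all its cells and 2559 in its rich cells. In the other 3 libraries they held 1447 to 1583 CPM, against 1435 to 1556 over all cells. The part of free RNA in the classes was not tested.

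Panel counts per cell were low. Of the 2889 cells, 865 had 0 panel UMIs, 879 had 1, 571 had 2, 335 had 3, 142 had 4, 57 had 5, 23 had 6, 10 had 7 and 7 had 8. The variance over cells was 1.97 for a mean of 1.43, a ratio of 1.38 where pure counting noise would give 1. At so few UMIs a cell, a separate group of cells and a continuous range cannot be told apart from these counts. Just inside the threshold lay 142 cells at 4 UMIs, and 335 lay just outside at 3. Among the UMIs that thinning had left out (held-out UMIs), the panel stood at 1.94 per 1000 at 3 UMIs, 2.25 at exactly 4 and 2.37 over all rich cells. The thinned panel had been 4.67 per 1000 in the same rich cells, so a large part of the value that chose them did not recur. In panel-zero cells the held-out panel was 1.11 per 1000 rather than 0.

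**Figure D2:**
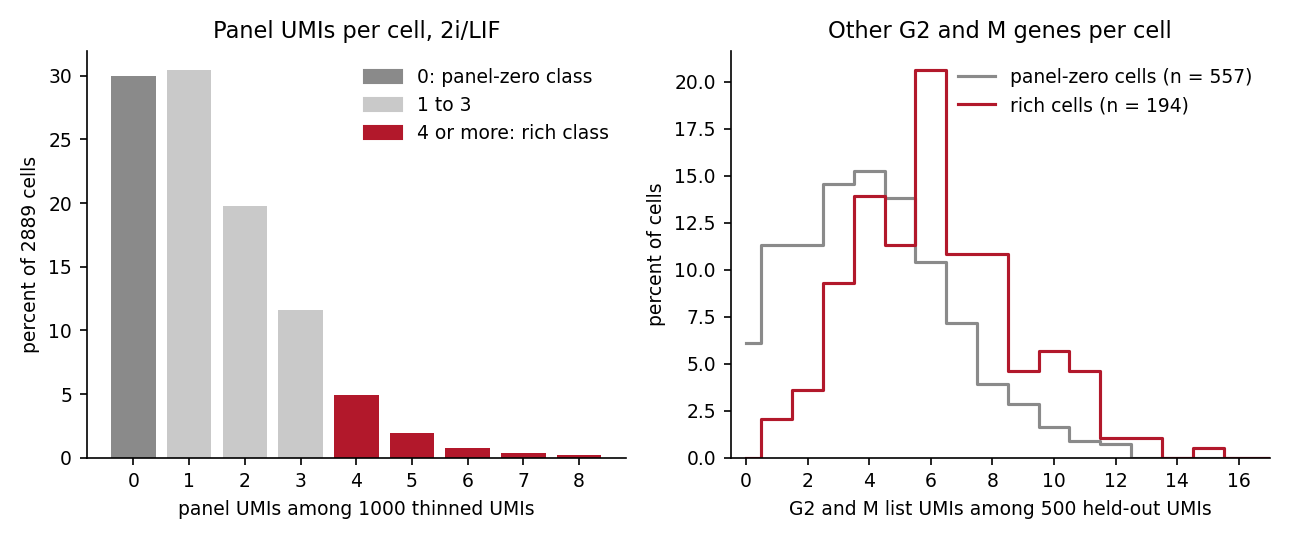
Left, percent of the 2889 cells of 2i/LIF at each panel UMI count among 1000 thinned UMIs, with the 239 rich cells (4 or more) in red. Right, percent of cells by G2/M list UMIs among 500 held-out UMIs, for 194 rich (red) and 557 panel-zero cells (grey): cell numbers fall from 1 panel UMI upwards, and the 2 G2/M distributions overlap with medians of 6 and 4.

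Which panel genes made a cell rich is a description of the rule. Top2a, the topoisomerase that untangles sister DNA, had a UMI in 209 rich cells (87.4%) and gave 38.4% of their 1117 panel UMIs. Cdk1, the kinase that drives entry into mitosis, was seen in 136 cells (56.9%), and its cyclin Ccnb1 in 120 (50.2%). The mitotic kinases Plk1 and Aurka were seen in 85 and 75 cells, Ccna2, the cyclin of S phase and G2, in 65, the proliferation antigen Mki67 in 41 and the checkpoint kinase Bub1 in 18. Most rich cells combined several genes: 6 had UMIs of 1 panel gene, 51 of 2, 103 of 3, 64 of 4, 14 of 5 and 1 of 6. Without a Top2a UMI there were 30 rich cells.

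In the held-out UMIs (534292 in rich and 1465768 in panel-zero cells) the panel sum was 2366 CPM in rich and 1108 in panel-zero cells, a ratio of 2.13 (95% counting interval 1.98 to 2.30). In cells with 600 or more genes it was 1.86 (1.72 to 2.01). With 1 library per condition there is no test between samples, intervals here are exact conditional binomial intervals that cover counting error only, and a gene is called past the fold when it has 20 or more held-out UMIs, a ratio of at least 1.5 either way and an interval that leaves out 1. Top2a stood at 992 against 405 CPM, Cdk1 at 419 against 198, Ccnb1 at 298 against 134, Plk1 at 247 against 97.6 and Aurka at 176 against 81.9, and these 5 were past the fold. Ccna2 (135 against 94.8 CPM) and Mki67 (82.4 against 62.8 CPM) were not, although Mki67 was in cells with 600 or more genes (1.64), and Bub1 had 9 UMIs in rich and 49 in panel-zero cells, a ratio of 0.504. Top2a and Plk1 thus had the highest ratios of the panel, and Bub1 alone was below 1.

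Past the fold over all genes outside the panel were 803 of 8535 higher (9.41%) and 75 lower (0.879%). Among cells with 600 or more genes these were 192 of 8062 higher (2.38%) and 142 lower (1.76%). The median gene was 0.26 higher on the log2 scale in rich cells, and 0.01 higher in cells with 600 or more genes. Beside this shift, mitochondrial genes held 61520 CPM in rich and 141500 in panel-zero cells.

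Of the 90 G2/M genes compared, 80 had a ratio above 1, as had 6235 of all 8535 genes and 82 of 89 ribosomal protein genes. Of the 90, 32 were past the fold higher (background 9.41%) and 0 lower (background 0.879%), with a median log2 ratio of 0.52 against 0.26 over all genes. Their summed level was 11850 CPM in rich and 8054 in panel-zero cells, a ratio of 1.47 (1.43 to 1.52), and it climbed through the classes between, at 8929, 10230 and 10480 CPM for 1, 2 and 3 panel UMIs. Over the same 3 classes the mitochondrial sum fell, at 111900, 83310 and 69930 CPM, and the naive pluripotency sum climbed, at 4734, 5029 and 5438. The classes between were read in all cells only. For cells of 600 or more genes 25 G2/M genes were past the fold higher (background 2.38%) and 1 lower (background 1.76%), with a summed ratio of 1.22 (1.19 to 1.26).

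Kinases, cyclins and regulators of mitotic entry numbered 14, with 5 past the fold higher (background 9.41%) and 0 lower (background 0.879%). The summed ratio of their list was 1.545 (1.422 to 1.678). In cells with 600 or more genes it was 1.226 (1.126 to 1.334), with 4 higher (background 2.38%). Cdc25c, the phosphatase that switches on CDK1, had 21 rich and 20 panel-zero UMIs (39.3 against 13.6 CPM), a ratio of 2.88, and Aurkb, the kinase of the chromosomal passenger complex, stood at 65.5 against 24.6 CPM, a ratio of 2.67. Bub1b, which makes a checkpoint protein, was at 283 against 141 CPM and Ccnf, an F-box cyclin, at 138 against 67.5 CPM. Cks2, a CDK1 subunit, had a ratio of 1.55 and was past the fold in all cells but not in cells with 600 or more genes (1.21). Ccnb2, the second B-type cyclin, was at 165 against 111 CPM and not past the fold in either.

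Spindle and cytokinesis genes held the most members past the fold, 15 of 31 higher (background 9.41%) and 0 lower (background 0.879%). They summed to 2981 CPM in rich and 1932 in panel-zero cells (ratio 1.54, 1.45 to 1.64). With only cells of 600 or more genes, the ratio was 1.39 (1.30 to 1.48), with 13 higher (background 2.38%) and 1 lower (background 1.76%). Nusap1, which bundles spindle microtubules near chromatin, stood at 97.3 against 32.7 CPM, a ratio of 2.97, and at 2.47 in cells with 600 or more genes. The motors Kif4 and Kif11 were at 48.7 against 18.4 and 131 against 53.9 CPM. Knstrn, a spindle and kinetochore adaptor, was at 71.1 against 28.0 CPM, Kpna2, an importin, at 165 against 73.7, and Prc1, which bundles the midzone, at 91.7 against 42.3. Tpx2, which activates AURKA, was at 219 against 121 CPM. Cep55, an abscission factor that acts at the end of division, went the other way, at 86.1 against 124 CPM, and was past the fold lower in cells with 600 or more genes (ratio 0.608).

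At the kinetochore and checkpoint 7 of 17 genes were higher past the fold (background 9.41%) and 0 lower (background 0.879%). Their summed ratio was 1.55 (1.45 to 1.65), and 1.28 (1.20 to 1.38) in cells with 600 or more genes. Incenp, the scaffold of the passenger complex, was at 176 against 73.7 CPM, Cenpf at 135 against 68.9, Bub3 at 337 against 185 and Sgo2a, which guards centromeric cohesion, at 86.1 against 47.1. The anaphase-promoting complex and its partners had 3 of 16 higher (background 9.41%) and 0 lower (background 0.879%). Their median log2 ratio was 0.31 against 0.26 over all genes, and 2 of 16 were higher in cells with 600 or more genes (background 2.38%). Fzr1, the activator used from late mitosis into G1, had the highest ratio of all 90, 230 against 71.0 CPM (3.24, 2.48 to 4.25), and 2.53 in cells with 600 or more genes. Ube2c, the ubiquitin-conjugating enzyme of the complex, climbed through the classes at 234, 281, 332, 370 and 591 CPM, a ratio of 2.53 (2.16 to 2.95) between the ends. Cdc20, the activator used in early mitosis, was at 86.1 against 77.8 CPM and securin (Pttg1) at 48.7 against 61.4, neither past the fold. Of the partners named here, Fzr1 and Ube2c thus had ratios over 2, while Cdc20 and Pttg1 were near or below 1.

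Chromosome condensation genes were the weakest of the G2/M groups, with 2 of 12 higher (background 9.41%), a summed ratio of 1.26 (1.18 to 1.34) and 1.00 (0.938 to 1.07) in cells with 600 or more genes. Ncaph, a condensin subunit, was at 138 against 70.3 CPM and H2ax at 180 against 96.2 (1.45 and not past the fold in cells with 600 or more genes), while Smc4, another condensin subunit, was at 144 against 104. Tubulins summed to 8222 against 5490 CPM (1.5, 1.44 to 1.55), with 2 of 10 past the fold higher (background 9.41%), Tuba1c at 303 against 159 CPM and Tubb5 at 2435 against 1525. In cells with 600 or more genes the tubulin ratio was 1.15 (1.11 to 1.19) and 0 were past the fold (background 2.38% higher, 1.76% lower).

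**Figure D3:**
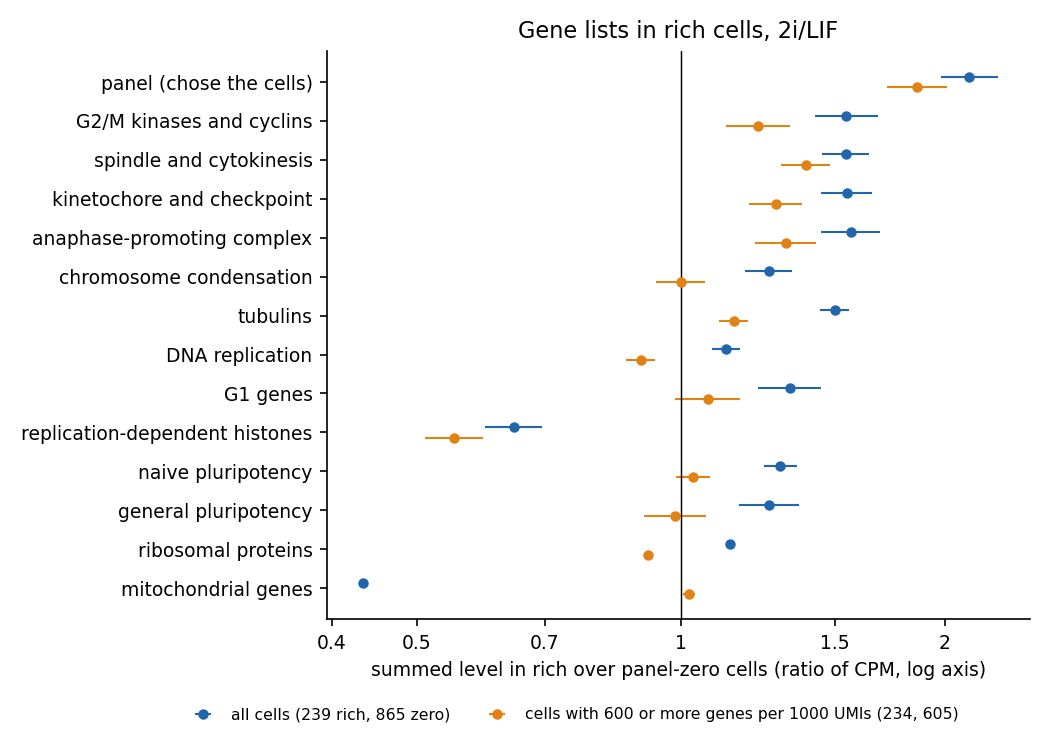
Ratio of summed CPM in rich over panel-zero 2i/LIF cells for each gene list (log axis, bars 95% counting intervals), in all cells (blue) and in cells with 600 or more genes among 1000 UMIs (orange). The 4 spindle, kinase, kinetochore and anaphase lists stay above 1 in both; mitochondrial genes move from 0.435 to 1.02.

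DNA replication genes did not share the pattern. Of 40 compared, 1 was past the fold higher (background 9.41%) and 0 lower (background 0.879%). The 1 was Cdca7, a chromatin factor of S phase, at 118 against 75.1 CPM (1.28 and not past the fold in cells with 600 or more genes). The summed ratio was 1.13 (1.09 to 1.17), below the shift of the median gene. Among cells with 600 or more genes it was 0.9 (0.867 to 0.935), with 0 of 39 past the fold higher (background 2.38%) and 2 lower (background 1.76%). These 2 were Slbp, which binds histone messages (0.588), and Ung, which removes uracil from DNA (0.663). Pcna, the sliding clamp, stood at 271 against 276 CPM and Mcm6, a helicase subunit, at 635 against 600. Of 11 G1 genes, E2f4, a repressor E2F of DREAM, was at 67.4 against 23.9 CPM, Rbl1, its pocket protein partner, had 16 against 21 UMIs (ratio 2.09), and Cdk4 was at 623 against 414 CPM, all past the fold higher (background 9.41% higher, 0.879% lower). Only E2f4 of these was past it in cells with 600 or more genes (2.02), where Rbl1 was at 2.03 (0.94 to 4.41) and Cdk4 at 1.2. Ccng1, an atypical cyclin induced by p53, was past the fold lower at 71.1 against 115 CPM (0.62), and at 0.682, not past it, in cells with 600 or more genes. In cells of 2000 to 4000 UMIs its direction turned, to a ratio of 1.03.

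UMIs of replication-dependent histones, which cells make in S phase, were lower in rich cells, in all cells and in cells with 600 or more genes. The labels name polyA RNA, so these UMIs count only histone messages captured as polyA RNA. The share of all histone message that this covers was not measured. Of 64 histone genes with a column, 16 had enough UMIs, all of them of H2A type, 7 were past the fold lower (background 0.879%), 0 higher, and none had a ratio above 1. The sum was 1626 CPM in rich and 2523 in panel-zero cells, a ratio of 0.645 (0.598 to 0.694), and in cells with 600 or more genes 0.552 (0.510 to 0.596) with 10 of 15 lower (background 1.76%). The classes between lay at 2561, 2224 and 2448 CPM for 1, 2 and 3 panel UMIs, so the drop stood at the rich end and was not graded. Hist1h2ao was at 133 against 269 CPM (0.494, 0.378 to 0.638). Histone copies are nearly identical in sequence, so the split of UMIs between single genes is uncertain. Over the alternatives run the summed ratio ranged from 0.535 to 0.828 and the number past the fold lower from 1 to 14, all below 1. With other random thinnings 2 (seed 3) were lower, and with 1500 UMIs 1.

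Pluripotency genes were mostly close to the shift of the median gene. Of 15 naive pluripotency genes 2 were past the fold higher (background 9.41%), Klf2, a Kruppel-like factor of the naive network, at 754 against 405 CPM (1.86, 1.64 to 2.12), and Tbx3 at 152 against 90.7. For cells of 600 or more genes Klf2 was at 1.38 and Tbx3 at 1.32, neither past the fold, and the naive sum went from 1.30 (1.24 to 1.36) to 1.03 (0.988 to 1.08). Nanog was at 601 against 470 CPM, Pou5f1 at 694 against 510 and Sox2 at 262 against 198, with ratios of 1.01, 1.02 and 1.07 in cells with 600 or more genes. None of 8 general pluripotency genes, 5 formative genes or 3 endoderm genes with enough UMIs was past the fold (background 9.41% higher, 0.879% lower). The general pluripotency sum had a ratio of 1.26, and 0.986 in cells with 600 or more genes. The sum over all 8 listed formative genes went from 1.27 (1.05 to 1.54) to 1.01 (0.831 to 1.22) in the same way, and that over the 11 listed endoderm genes, 275 against 241 CPM, from 1.14 (0.933 to 1.39) to 1.08 (0.873 to 1.33).

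**Figure D4:**
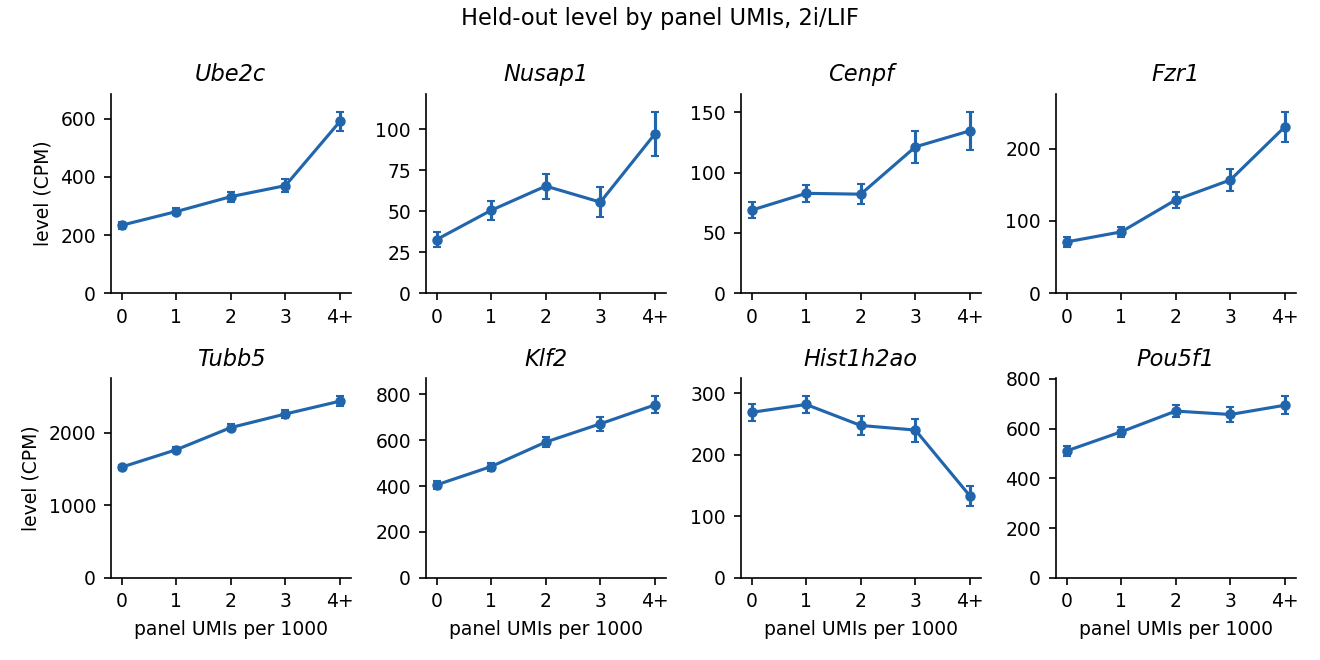
CPM of single genes in the held-out UMIs of 2i/LIF cells with 0, 1, 2, 3 and 4 or more panel UMIs (points; bars are the square root of the UMI count, counting error only; each y axis starts at 0). Ube2c climbs from 234 to 591 CPM and Hist1h2ao lies at 133 CPM in the rich cells against 240 or more in each other class.

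Mitochondrial genes were lower in rich cells as a whole, 12 of 18 past the fold (background 0.879%), at 61520 against 141500 CPM (0.435, 0.430 to 0.440). mt-Cytb, a subunit of complex III, was at 8168 against 23488 CPM. With only cells of 600 or more genes, the mitochondrial sum ratio was 1.02 (1.01 to 1.04), 0 of 15 were past the fold (background 2.38% higher, 1.76% lower) and mt-Cytb was at 1.04. The 6 nuclear gene models that share most of their sequence with mitochondrial genes went from 0.47 to 1.01 in the same way. Of 89 ribosomal protein genes 0 were past the fold (background 9.41% higher, 0.879% lower). Their summed ratio was 1.14 (1.13 to 1.15) in all cells and 0.919 (0.909 to 0.928) in cells with 600 or more genes. Heat shock (1.21), nucleolar (1.27), glycolysis (1.28), immediate early (1.32) and p53 target genes (1.29) lay between 0.968 and 1.03 there.

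Beyond the lists, the 12 named genes with the highest and the lowest ratios were taken from the genes past the fold with at least 50 CPM in the higher class, of which 515 were higher and 27 lower. Mettl14, a subunit of the RNA m6A methyltransferase, led the higher ones at 65.5 against 19.8 CPM (35 and 29 UMIs, ratio 3.31) and was at 2.90 in cells with 600 or more genes. It was followed by Sipa1l2 (2.74), H2-M5 (2.69), the autophagy gene Atg5 (2.66) and Dennd5b (2.46). Sin3a, a corepressor, was at 2.33, Gpt2, an alanine aminotransferase, and Vps4a, an ATPase of membrane scission, at 2.32, Zfp7 at 2.31 and Eif2s3y at 2.30. Lower were Dppa5b, with 14 and 91 UMIs (0.422), Emc1 (0.424), Ndufb11, a subunit of complex I (0.462, and 0.4 in cells with 600 or more genes), and Col19a1 (0.481, and 0.957 there). After these came Ndufab1-ps (0.544), Tnks (0.549), Gtf2h5 (0.563), Far1 (0.583), Tmx3 and Tgoln1 (0.584), Zfp980 (0.585) and Igbp1 (0.597). The lower genes shared no role that a list names, and all of the 12 but Col19a1 and Igbp1 were above 1 under at least 1 other setting run. Emc1, Tnks, Tmx3, Igbp1, Zfp980 and Col19a1 were not past the fold in cells with 600 or more genes.

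Per cell, the shift was one of overlapping distributions. With every cell thinned to 500 held-out UMIs (194 rich and 557 panel-zero cells, 45 and 308 shallower ones left out), rich cells had a median of 6 G2/M UMIs (quartiles 4 to 8, range 1 to 15) and panel-zero cells 4 (2 to 6, range 0 to 12). None of the rich cells had 0, against 6.1% of panel-zero cells and 2.09% of those with 600 or more genes. In cells with 600 or more genes the means were 6.24 and 5.03. Histone UMIs had means of 0.809 in rich and 1.31 in panel-zero cells, and 51.5% and 39.7% of the cells had 0.

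Rich cells were also split by the panel genes behind their call. The split used the same thinned UMIs that chose the cells, so a difference in those UMIs was fixed in advance. With a thinned UMI of Ccnb1, Plk1 or Aurka, which peak in late G2 and mitosis, there were 199 rich cells, and 40 had none. Ube2c was at 649 CPM in the 199 and 371 in the 40, a ratio of 1.75 (1.26 to 2.49). Only some genes of the G2/M lists were compared between these cells, and no other of them was past the fold. Fzr1 was at 0.974 (0.626 to 1.57) and Nusap1 at 2.00 (0.853 to 5.73). The 40 were deeper, with a median of 3878.5 UMIs against 2926 in the 199. Hist1h2ao had a ratio of 0.545 and mt-Cytb of 0.585 between the same cells, and of the 3 genes that made the split, Aurka had a held-out ratio of 1.97 (1.05 to 4.10), Ccnb1 of 0.892 (0.611 to 1.33) and Plk1 of 0.816 (0.543 to 1.26). The split was not repeated in cells with 600 or more genes.

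The same rule was applied in the other libraries, with their own thinning. Cells with 4 or more panel UMIs made up 12.3% of JupHigh cells (11 to 13.8), 9.58% of JupLow (7.98 to 11.4), 9.66% of serum/LIF on plastic (7.60 to 12) and 8.04% of serum/LIF in gel (9 of 112 cells, 3.74 to 14.7), against 8.27% in 2i/LIF. The JupHigh interval lay above that of 2i/LIF and the other 3 overlapped it. JupHigh was also the library whose barcodes of under 500 UMIs held the most panel CPM (2028), and the part of this in its share was not tested. Before thinning the shares were 37.7%, 41.3%, 41.8% and 30.4%, with 43.5% in 2i/LIF, the deepest library by median (2465 UMIs, the others 1731.5 to 2361). Among cells with 600 or more genes they were 18.5%, 13%, 12.1% and 9.33%, and 9.95% in 2i/LIF, where 81.4% of the cells had that many genes against 61.5% in JupHigh. With 1 library each, the order of the shares has no replicate check. Jup itself stood at 47.8 CPM in the library labelled JupHigh, 37.9 in that labelled JupLow, 46.7 in 2i/LIF, 36.7 in serum/LIF on plastic and 38.1 in gel, and was not set apart from the wild type in either line.

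G2/M genes were higher in rich cells in every library, with summed ratios of 1.47 in 2i/LIF, 1.5 in serum/LIF on plastic, 1.58 in JupLow, 1.62 in JupHigh and 1.75 in gel (11 rich and 39 panel-zero cells). Among cells with 600 or more genes the first 4 were 1.22, 1.37, 1.43 and 1.15. The gel ratio there was 1.40 (1.14 to 1.73). Over the 16 mitochondrial columns present in every table, the ratios of the first 4 libraries in the same cells were 1.03, 1.12, 1.16 and 1.05, and 0.449, 0.622, 0.543 and 0.391 in all cells, while gel was at 0.529 (0.473 to 0.591) and 0.236. Naive pluripotency ratios were 1.30, 1.49, 1.73 and 1.72 in all cells, and 1.03, 1.45, 1.53 and 1.16 in cells with 600 or more genes. The gel library went the other way for naive genes, at 0.567 (0.334 to 0.933), and 0.415 (0.227 to 0.735) in cells with 600 or more genes. Over the 55 histone columns present in every table the ratio was 0.643 in 2i/LIF (0.55 in cells with 600 or more genes), 1.30 in serum/LIF on plastic (1.03 to 1.64), 0.965 in JupLow and 1.08 in JupHigh. For the last 3, it was 1.36 (1.06 to 1.75), 0.999 (0.842 to 1.18) and 0.764 (0.672 to 0.868) in cells with 600 or more genes.

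**Figure D5:**
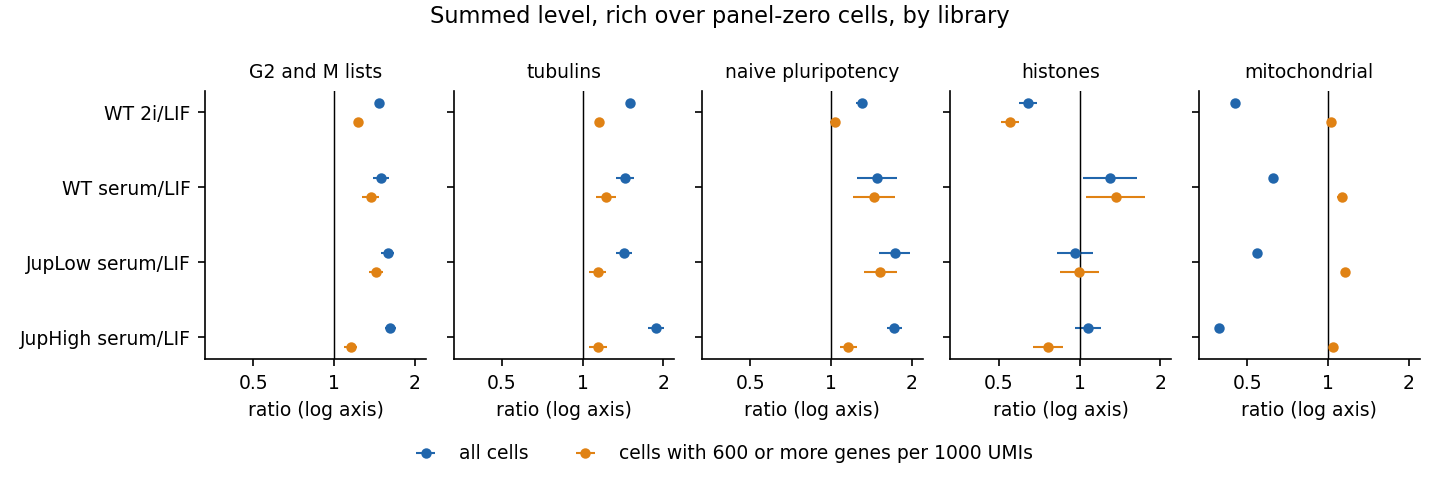
Ratio of summed CPM in rich over panel-zero cells (log axis, bars 95% counting intervals) for 5 gene lists in 4 libraries, in all cells (blue) and in cells with 600 or more genes among 1000 UMIs (orange). G2/M ratios lie above 1 in each library and in both sets; histones are below 1 in 2i/LIF in both and at 1.30 in serum/LIF on plastic.

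Rich and panel-zero cells were then compared across the 3 plastic libraries that the rule had not used (JupHigh, 266 rich and 534 panel-zero cells; JupLow, 115 and 340; serum/LIF, top 10% of cells, 72 and 193), by edgeR's quasi-likelihood test on summed counts with the library as a block. The classes differed in makeup here too. In JupHigh 60.9% of panel-zero and 7.89% of rich cells had under 600 genes among 1000 UMIs. In JupLow these shares were 49.4% and 13.9%, and in serum/LIF 41.5% and 9.72%. Median mitochondrial shares of panel-zero and rich cells were 51.0% and 12.5% in JupHigh, 29.4% and 9.2% in JupLow, and 13.8% and 7.2% in serum/LIF. Of 6079 genes, 11 rose (0.181%) and 69 fell (1.14%) at a Benjamini-Hochberg adjusted p of 0.05, and 638 had an unadjusted p under it. With the library as a block, the p-values measure only how the difference between the classes varied over these 3 libraries. These libraries are not replicates of a condition. For cells of 600 or more genes 13 of 5190 rose (0.25%) and 48 fell (0.925%), and 40 of the 80 called genes were called again. In that set 3 rose and 7 fell without JupLow, with 9 of the 80 called again, against 37 of the 80 without JupHigh and 30 without serum/LIF.

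Of 86 G2/M genes tested, 3 rose (background 0.181%), 0 fell (background 1.14%) and 66 had a log2 fold change above 0, with a median of 0.28 against -0.02 over all genes. At an unadjusted edgeR p under 0.05, 18 were higher and 0 lower, beside 638 of all 6079 genes in either direction. Nusap1 stood at 102 against 41.7 CPM in JupHigh, 157 against 51.4 in JupLow and 98.4 against 39.7 in serum/LIF (log2 fold change 1.1, SE 0.29, adjusted p 0.0167). Kpna2 was at 225 against 85.4, 242 against 64.2 and 148 against 88.0 CPM (1.08, SE 0.25, adjusted p 0.00229). Ube2c was at 539 against 256, 399 against 223 and 500 against 190 CPM (0.76, SE 0.19, adjusted p 0.00841). Each was thus higher in rich cells of all 3 libraries, as in 2i/LIF. These calls were not firm: DESeq2 called none of the 86, Nusap1 lost its call whichever library was left out (edgeR adjusted p 0.0721 without JupHigh, 0.629 without JupLow, 0.191 without serum/LIF), Kpna2 without JupLow (0.596), and Ube2c without JupLow (0.287) or serum/LIF (0.229). With only cells of 600 or more genes, Kpna2 (adjusted p 0.00214) and Prc1 (log2 fold change 1.45, adjusted p 0.0325) passed, and Nusap1 (adjusted p 0.0879) and Ube2c (adjusted p 0.0721) did not. Both calls were lost in that set without JupLow (Kpna2 adjusted p 0.695, Prc1 0.765 by edgeR), and without JupHigh Prc1 did not pass the count filter and was not tested. Fzr1, the G2/M gene with the highest ratio in 2i/LIF, was at 129 against 59.5 CPM in JupHigh, 56.2 against 55.7 in JupLow and 107 against 39.7 in serum/LIF (adjusted p 0.532).

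Of 12 naive pluripotency genes 2 rose (background 0.181%). Klf2 was at 572 against 306 CPM in JupHigh, 286 against 114 in JupLow and 205 against 39.7 in serum/LIF (log2 fold change 0.92, SE 0.21, adjusted p 0.00246, and 0.0262 in cells with 600 or more genes). Tdh, the threonine dehydrogenase of embryonic stem cells, had a log2 fold change of 0.76 (adjusted p 0.0141) and in 2i/LIF a level of 1355 against 978 CPM, not past the fold. Klf2 lost its call without JupLow (edgeR adjusted p 0.334) or serum/LIF (0.252), and in cells with 600 or more genes too (0.576 and 0.318). Tdh lost it without the same libraries in all cells (edgeR adjusted p 0.721 and 0.0999), and DESeq2 called neither. Of 10 histone genes 0 rose or fell by edgeR or DESeq2 and 0 had an unadjusted p under 0.05 by edgeR, with all 10 log2 fold changes below 0 (median -0.23). In cells with 600 or more genes 2 of 10 were above 0 (median -0.14). These fold changes are TMM-scaled and cover the 10 genes tested. The summed CPM ratios of 1.30 in serum/LIF, 0.965 in JupLow and 1.08 in JupHigh are not, and cover 55 histone columns. H19, the imprinted noncoding RNA, had the largest rise (1.80, SE 0.28, adjusted p 1.12e-07), from 348 against 101 CPM in JupLow and 394 against 76.6 in serum/LIF. It had 0 UMIs in both classes of JupHigh and of 2i/LIF, and lost its call without serum/LIF (adjusted p 0.0532 by edgeR). The gene model Gm10184 (1.19, adjusted p 1.73e-07) was at 476 against 200 CPM in JupHigh, 770 against 253 in JupLow and 632 against 196 in serum/LIF, and at 455 against 208 in 2i/LIF. Both H19 and Gm10184 rose also in cells with 600 or more genes.

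Among the 69 genes that fell in rich cells of these libraries, 4 are given here that were chosen after their values were seen. Tagln, an actin-binding protein of smooth muscle and spreading cells, was at 309 against 1058 CPM in JupLow, 82.0 against 391 in serum/LIF and 6.61 against 15.9 in JupHigh (log2 fold change -2.11, SE 0.26, adjusted p 6.16e-13). Krt8 (-1.31) was at 320 against 813 CPM in JupLow and 402 against 726 in serum/LIF, and Krt18 (-1.83) at 157 against 535 and 139 against 355. Vim (-1.18) was at 73.0 against 233 and 82.0 against 448 CPM in these libraries, but at 182 against 113 in JupHigh and 504 against 395 in 2i/LIF. Tagln had 0 UMIs in both classes of 2i/LIF and Krt18 1 in each, so neither was measurable in the 2i/LIF rich cells. Tagln, Krt8, Krt18 and Vim fell also in cells with 600 or more genes, where Krt8 (edgeR adjusted p 0.0517) and Vim (0.102) lost the call without JupLow and Vim also without serum/LIF (0.103). Tagln kept its call whichever library was left out, while Krt8 (edgeR adjusted p 0.376), Krt18 (0.113) and Vim (0.324) lost it without JupLow, and Vim also without serum/LIF (0.551). Beside this, the endoderm list summed to 331 CPM in rich and 985 in panel-zero cells of JupLow, 238 against 516 in JupHigh and 2272 against 1705 in serum/LIF, where it turned to 1149 against 2212 in cells with 600 or more genes (JupLow 358 against 1264, JupHigh 252 against 743), and the fibroblast list to 3 against 25 UMIs in JupLow, 1 against 3 in JupHigh and 2 against 25 in serum/LIF. The part of these cells in the fall was not tested. Ccng1, lower past the fold in 2i/LIF but at 1.03 there in cells of 2000 to 4000 UMIs, fell here (-0.92, SE 0.22, adjusted p 0.0033), at 99.2 against 133, 225 against 319 and 197 against 386 CPM, but not in cells with 600 or more genes (adjusted p 0.232), without JupLow (0.209), without serum/LIF (0.188), by DESeq2 or with thinning seed 3. Of the mitochondrial genes 10 of 13 tested fell (background 1.14%). One of them, mt-Nd6, rested on the serum/LIF library and was not tested without it. Without JupLow only mt-Nd3 and mt-Nd5 of these kept the call, and without serum/LIF 5 did. With cells of 600 or more genes 0 fell (background 0.925%), and mt-Rnr1 (adjusted p 0.00976) and mt-Rnr2 (adjusted p 0.00124) rose by edgeR (background 0.25%). Both lost the call without JupLow (0.402 and 0.105), mt-Rnr1 also without serum/LIF (0.286).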

How the data were processed

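Each single-cell table was deposited by the authors as UMI counts per barcode and gene, per the file headers. The submitters' processing notes name FastQC, STAR, featureCounts, DESeq2, Scanpy and the builds mm10 and GRCm38, with no versions or roles. The labels name inDrop and polyA RNA, and say that cells were washed with PBS. Columns without a gene name (0.00509 to 0.499% of UMIs) were dropped, 1 incomplete row of the gel table was skipped, and 6 columns of the bulk table were not used.

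Cells were called, thinned to 1000 UMIs with a fixed seed and classed by panel UMIs as the results state. Levels are CPM of the held-out UMIs of each class, so that the UMIs that chose a cell do not enter its level. They still come from the same cells, and with 1 library in 2i/LIF they are a description without a test. Total UMIs per library were 236195 to 8284254 in 112 to 2889 cells, with medians of 1731.5 to 2465 UMIs per cell. All intervals are exact at 95% and cover counting error only.

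The test across 3 libraries used summed held-out counts with edgeR 4.0.16 in R 4.3.3 (TMM, filterByExpr, panel left out, library as block, 2 residual degrees of freedom, Benjamini-Hochberg). It kept gene names with a column in every one of these tables, leaving out 9622 of 27792. The serum/LIF table on plastic has no column for Sox2, mt-Nd4, mt-Co3 and others, and lists mt-Nd4l at 18160 and mt-Nd6 at 8495 CPM in panel-zero cells, against at most 1157 and 11.9 in the other libraries. Whether it was counted with another annotation is not given in the sources used here. The gel library, with 11 rich cells, did not enter. DESeq2 1.42.0 was an alternative. Scripts used Python 3.11.15, numpy 2.4.6, pandas 2.3.3 and scipy 1.17.1, and were tested on simulated data. Promoters came from RefSeq windows, with each motif searched on both strands and a gene counted when any of its windows held it.

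The members, the gene lists and the tests were chosen with earlier results of these data known. Named are the panel genes, the members of each list with the largest ratios past the fold (or the most abundant where none was), the 12 highest and 12 lowest genes beyond the lists (35 and 5 models with Gm or Rik names were counted but not named), and genes from the test. Some of the higher genes beyond the lists are not reported here. Other named genes were chosen after their values were seen. Alternatives were other thinnings, cuts, depth windows, scalings, filters, cell sets and left-out libraries.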

Additional observations from a re-analysis of the deposited data

Results flagged for a closer look

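The histone sum differed in direction between wild-type libraries. The labels name polyA RNA, so only histone messages captured as polyA RNA are counted in it. Over the 55 replication-dependent histone genes with a column in every table, the ratio of rich to panel-zero cells was 0.6429 in 2i/LIF and 1.301 in serum/LIF on plastic (95% counting interval 1.03 to 1.64). The difference was not tested, since each condition has 1 library. In JupLow and JupHigh the ratios were 0.965 and 1.08, and in gel 0.953. In cells with 600 or more genes among 1000 UMIs they were 0.55 (0.508 to 0.596) in 2i/LIF, 1.36 (1.06 to 1.75) in serum/LIF on plastic, 0.999 in JupLow, 0.764 (0.672 to 0.868) in JupHigh and 0.782 (0.544 to 1.13) in gel. In panel-zero cells the level of these histone genes was 681 CPM in serum/LIF on plastic. It was 2367 in 2i/LIF, 1310 in JupLow, 1536 in JupHigh and 3105 in gel. The serum/LIF table on plastic also differs from the others in its columns and in the levels of mt-Nd4l and mt-Nd6. The part of these differences in the histone ratio was not tested.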

How the results depend on the processing

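Some counts and ratios moved with the processing. Genes higher past the fold in 2i/LIF went from 803 to 384 with 100 or more held-out UMIs, 216 with the TMM factor, 1883 with the mean of per-cell CPM (no interval used) and 192 in cells with 600 or more genes. Genes lower went from 75 to 118 with all UMIs, 49, 274, 644 and 142 in the same order after that. The G2/M ratio went from 1.471 to 1.376 with 3 or more panel UMIs, 1.535 in cells of 2000 to 4000 UMIs, 1.224 with TMM and 1.225 in cells with 600 or more genes. The share of rich cells went from 8.273% to 20.99% at 1500 UMIs, 19.87% at 3 or more panel UMIs, 3.358% at 5 or more and 9.953% in cells with 600 or more genes. The CHR share went from 57.1% to 23.4% in 100-base windows.

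Directions turned for single genes and for lists: seed 2 gave Tnks 1.172 and Far1 1.307, seed 3 Emc1 1.166, Far1 1.055 and Tmx3 1.006, thinning to 1500 UMIs Dppa5b 1.179, Ndufab1-ps 1.034, Tnks 1.002, Gtf2h5 1.245 and Tgoln1 1.069, and cells of 2000 to 4000 UMIs Ccng1 1.029 and Ndufb11 1.112. Ribosomal ratios became 0.9985 with all UMIs, 0.9476 with TMM and 0.9186 in cells with 600 or more genes, and replication 0.9371 with TMM and 0.9004 in those cells, where general pluripotency was 0.9857, mitochondrial genes 1.022, their look-alikes 1.01, mt-Nd5 1.041, mt-Nd2 1.031, mt-Cytb 1.036 and Zfp980 1.2.

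In the test, genes that rose went from 11 to 4 with DESeq2, 5 without a filter, 55 with all UMIs, 19 with seed 2 and 0 without the library block, and those that fell from 69 to 25 with DESeq2, 141 with all UMIs, 44 with seed 3 and 0 without the block, where edgeR had 189 of 5211 genes at an unadjusted p under 0.05. Leaving out 1 library gave 2 to 16 that rose and 12 to 57 that fell: without JupLow 3 and 12, without serum/LIF 2 and 27, and without JupHigh 16 rose. In cells with 600 or more genes log2 fold changes became positive for Col19a1 0.1433, Gm10925 0.1259, Gm13339 0.1291, Gm13340 0.1126, Gm13341 0.1648, Gm28437 0.1977, Gm28438 0.156, mt-Atp6 0.1508, mt-Co1 0.1405, mt-Co2 0.1807, mt-Nd1 0.09024 and mt-Nd3 0.04585. Seed 2 gave Col4a1 0.1667 and Slc38a10 0.0341, and seed 3 Nlrp4e 0.02662. The cause was not tested. No paired analysis was possible because replicate numbers could pair only the bulk samples, which were not used. The pairing of rich and panel-zero cells within a library is the library block above.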
